A study of Mus musculus with 12 samples.

Results

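The 10 genes described here encode the kinases, checkpoint proteins and centromere protectors that time chromosome segregation: Plk1, Ttk, Aurka, Aurkc, Bub1, Bub1b, Bub3, Mad2l1, Sgol1 and Sgol2. They were chosen by name, with earlier results of these data known, among them the high level of Sgol2 in Mtr4-null oocytes. All 10 were found among the 23235 gene symbols of the deposited table. All 10 passed the filter on low values, a mean of at least 1 FPKM over the groups, as did 11913 genes in all. FPKM counts read fragments per length of transcript and per size of library, so levels can be compared between genes. The plan was to set the level of Sgol2 against the other 9 genes.

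The spindle checkpoint holds back anaphase until every kinetochore is attached to microtubules. The kinase TTK (also called MPS1) starts the signal at unattached kinetochores, where BUB1, BUBR1 (encoded by Bub1b), BUB3 and MAD2 gather and where an inhibitor of the anaphase-promoting complex is made. Shugoshins (SGO1 and SGO2) bring the phosphatase PP2A to centromeres and shield cohesin from separase, and in mouse oocytes SGO2 is known as the protector of centromeric cohesin in the first meiotic division. Aurora A and PLK1 build the spindle, and Aurora C is the germ-cell member of the chromosomal passenger kinases.

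Poly(A) RNA was profiled in mouse oocytes of 2 genotypes and 2 ages. Wild-type (WT) oocytes of day 14, which the labels call growing, and WT germinal vesicle oocytes of day 21 were the controls. Mtr4-null oocytes, which lack the RNA helicase MTR4 that delivers nuclear RNA to the exosome for decay, were taken at the same 2 ages. The labels list 3 libraries of 10 oocytes in each of the 4 groups, whereas the design text speaks of duplicates, and neither says which animals the libraries came from. The way the gene was deleted, and any Cre line, are not given in the sources used here. The table held 1 value per gene and group, the authors' mean, so no value below has a replicate error, no test was possible, and sequencing depth is unknown. Differences are given on the log2(FPKM + 1) scale and are called when they reach 1, which is 2-fold on that scale. This is a rule of size and not a test of significance.

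Several facts of the whole table bear on these values. Skiv2l2, the older symbol of the gene for MTR4, stood at 27.6 FPKM in WT against 1.57 FPKM in Mtr4-null oocytes of day 14, with day 21 levels of 26.3 and 3.86 FPKM. All 12 oocyte markers, among them Gdf9 and Zp3, were above 0 in every group, with summed levels of 14777 to 23935 FPKM, and at day 21 their sum was 18505 FPKM in WT but 14777 FPKM in Mtr4-null. The 12 granulosa markers summed to 27.8 to 39.7 FPKM, although single ones moved apart at day 21: Cyp19a1 stood at 25.3 FPKM in WT and 1.48 in Mtr4-null, Inha at 1.72 and 10.9, and Hsd3b1 at 0.321 and 7.65. The 11 theca, stromal, endothelial and blood markers summed to 3.10 to 21.6 FPKM. At day 21 this last sum was 21.6 FPKM in WT against 3.10 FPKM in Mtr4-null oocytes, of which Pecam1 made up 20.7 and 2.13 FPKM. The part of these markers in the results was not tested. In 3 columns, 47.2% to 48.9% of the values above 0 ended in a run of 3s or 6s, as means of 3 rounded numbers do. In the Mtr4-null day 21 column 0.108% did, and 92.3% of the 2211 values between 10 and 100 that carry 5 decimals ended in 5, as means of 2 do. Each value of Mtr4-null oocytes at day 21, and each comparison that uses one, rests on that column, which may be a mean over fewer libraries than listed. FPKM are shares of a library, so they do not give absolute amounts. A lower share can come from less of that transcript or from more of others.

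Sgol2 was the only one of the 10 genes called higher in Mtr4-null oocytes. Its mRNA stood at 20.1 FPKM in WT oocytes of day 14 and 81.2 FPKM in their Mtr4-null counterparts, a 4.05-fold difference. The day 21 levels were 18.9 FPKM for WT and 493 FPKM for Mtr4-null, a 26.1-fold difference. The 2 WT groups were thus close to each other, and both Mtr4-null groups stood above them, the older one by far. The log2 differences were 1.96 at day 14 and 4.63 at day 21. Among all 11913 genes Sgol2 held place 356 from the top at day 14 and place 242 at day 21. Few genes as well expressed in WT differed as much: of 5925 genes with at least 10 FPKM in WT at day 21, 48 others reached the day 21 difference of Sgol2 and 65 its day 14 difference. Sgol2 was chosen with its high level known, and the WT day 21 level enters the day 21 difference. These places and counts therefore only describe it.

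The background was large at day 21. At least 2-fold higher values were found for 8.1% of all genes tested at day 14 and for 20.2% at day 21, and lower ones for 1.55% and 25.7%. Of the 10 genes, 1 was higher and none lower at day 14, and 1 was higher and 5 lower at day 21. Quantile normalization took the higher share of all calls at day 14 from 83.9% to 68.6%. Median-of-ratios scaling moved the median difference of all genes from 0.052 to -0.075 at day 14 and from -0.27 to -0.15 at day 21. Sgol2 stood at 1.81 and 4.78 under that scaling.

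The promoters of both shugoshin genes and of the pair of kinase genes with the lowest day 21 differences show how the loci differ in letters. The sequences are from RefSeq on GRCm38.p6, which is not the build of the authors' files (mm9), and each spans 250 bases before to 50 bases after an annotated start. RefSeq gives Sgol2 (now Sgo2a) 2 starts on the plus strand, 10634 bases apart, at chr1:57985090-57985389 and chr1:57995724-57996023. Sgol1 (now Sgo1) lies on the minus strand at chr17:53689266-53689565. Plk1 is at chr7:122159185-122159484 and Ttk at chr9:83834439-83834738, both on the plus strand. Capitals mark 2 motifs, searched on both strands: the cell cycle genes homology region (CHR, read as TTTGAA or TTTAAA), a site of cell cycle promoters, and CCAAT, the box bound by NF-Y. No match of the one overlapped a match of the other.
Sgol2, first start: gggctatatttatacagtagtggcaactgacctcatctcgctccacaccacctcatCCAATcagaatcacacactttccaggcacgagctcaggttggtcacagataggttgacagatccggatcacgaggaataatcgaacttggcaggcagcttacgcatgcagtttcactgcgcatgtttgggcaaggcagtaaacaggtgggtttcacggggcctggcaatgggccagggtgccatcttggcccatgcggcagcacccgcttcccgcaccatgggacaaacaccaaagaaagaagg
Sgol2, second start: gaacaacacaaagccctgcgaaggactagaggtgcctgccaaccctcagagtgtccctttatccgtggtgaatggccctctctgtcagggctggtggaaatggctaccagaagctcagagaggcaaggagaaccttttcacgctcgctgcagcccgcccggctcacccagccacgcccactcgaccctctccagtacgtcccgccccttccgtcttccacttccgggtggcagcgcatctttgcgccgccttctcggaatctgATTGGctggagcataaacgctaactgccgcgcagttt
Sgol1: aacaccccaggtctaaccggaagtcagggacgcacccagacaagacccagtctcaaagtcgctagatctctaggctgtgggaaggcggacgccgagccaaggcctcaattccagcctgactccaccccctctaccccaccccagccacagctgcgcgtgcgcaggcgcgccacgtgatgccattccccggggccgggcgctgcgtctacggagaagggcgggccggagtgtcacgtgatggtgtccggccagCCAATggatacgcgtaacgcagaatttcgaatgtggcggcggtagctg
Plk1: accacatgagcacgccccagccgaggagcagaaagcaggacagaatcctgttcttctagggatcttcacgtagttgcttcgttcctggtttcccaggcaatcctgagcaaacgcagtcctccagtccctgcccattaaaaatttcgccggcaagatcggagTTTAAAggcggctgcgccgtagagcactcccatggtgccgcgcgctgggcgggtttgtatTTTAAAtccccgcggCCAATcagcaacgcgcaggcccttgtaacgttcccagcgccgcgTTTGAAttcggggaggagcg
Ttk: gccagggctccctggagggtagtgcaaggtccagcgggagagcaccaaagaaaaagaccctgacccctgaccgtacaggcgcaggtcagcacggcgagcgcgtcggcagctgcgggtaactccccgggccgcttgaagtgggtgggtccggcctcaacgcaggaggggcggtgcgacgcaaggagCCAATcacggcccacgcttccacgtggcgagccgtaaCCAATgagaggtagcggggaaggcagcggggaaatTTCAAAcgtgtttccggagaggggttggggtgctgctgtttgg

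RefSeq listed promoters for all 10 genes, 12 in number. Matches to CHR were present in 6 of them, belonging to Plk1, Ttk, Aurka, Bub1b and Bub3, against 27.6% of all 32851 promoters of the same length. CCAAT was present in 11 of the 12, against 37.4% of all promoters, and Mad2l1 was the gene without it. The Bub3 promoters overlap and hold the same matches, which are thus counted more than once in these shares. Plk1 held 3 CHR matches and Ttk 1. Both Sgol2 starts and the Sgol1 start held no CHR match and 1 CCAAT each. Of the 5 genes called lower at day 21, 4 held a CHR match and Bub1 did not. Aurka, 1 of these 4, was not called under median-of-ratios scaling or quantile normalization. Among the other 5, Bub3 held one. Sgol1 and Mad2l1, which held none, stood at -0.93 and -0.82 at day 21, not far short of the rule. The share of CHR among all genes called lower was not computed, so a link of the motif to the calls was not tested. A match is a run of letters and not a shown binding site.

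The reading of Sgol2 is limited by a gene on the other strand. In GENCODE vM21 on GRCm38, Sgo2a (ENSMUSG00000026039.9) spans chr1:57995971-58025899 on the plus strand, and its coding transcript has 9 exons and 4939 bases. Kctd18 overlaps 22986 bases of it on the minus strand. Of the 4890 windows of 50 bases in the Sgol2 transcript, 47.8% also occur, on the opposite strand, in 1 of the 11 transcript models of Kctd18, one annotated as a target of nonsense-mediated decay. The RefSeq models of Kctd18 and Sgo2a do not overlap and lie 15198 bases apart. The Smart-seq2 protocol does not keep the strand, so reads from such a Kctd18 transcript and from Sgol2 cannot be told apart in the shared part. The Kctd18 row stood at 5.98 FPKM in WT against 6.86 FPKM in Mtr4-null oocytes of day 14, with day 21 levels of 5.91 and 5.17 FPKM. This row lay within a narrow range in all 4 groups, but it cannot tell which gene the reads of the shared part came from. On the other side, Aox1 begins 3531 bases past Sgol2 and was listed at 0 in all 4 groups. The paralog Sgo2b shared 2.68% of the Sgol2 windows, and its level was not used here.

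**Figure D1:**
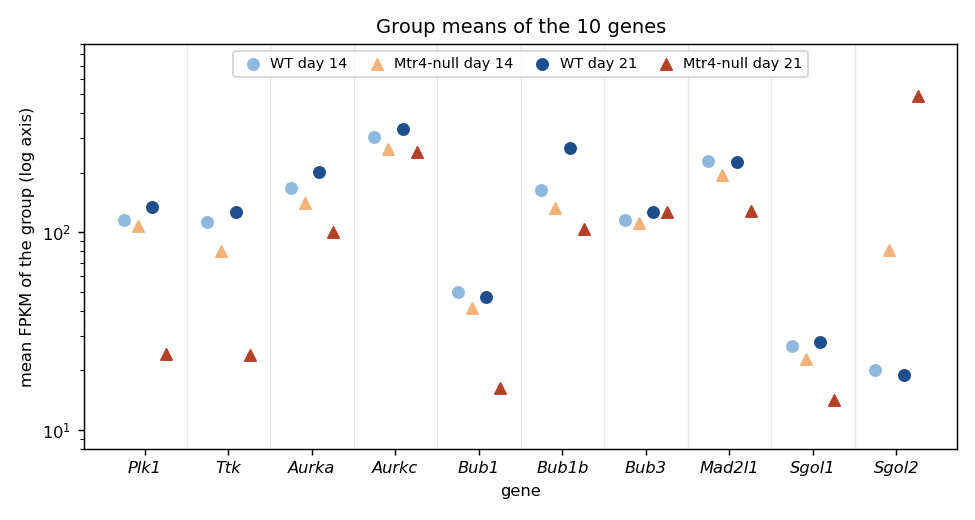
Mean FPKM of each of the 10 genes in the 4 groups, on a log axis, with circles for WT and triangles for Mtr4-null, light at day 14 and dark at day 21; each point is the authors' mean with no error bar. Sgol2 goes from the lowest of the 10 genes in both WT groups (20.1 and 18.9 FPKM) to the highest in Mtr4-null oocytes of day 21 (493 FPKM), while 8 of the other 9 genes, all but Bub3, have their own lowest level in that group.

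SGO1, the other shugoshin, acts mainly in mitosis. Sgol1 stood at 26.5 FPKM in WT against 22.7 FPKM in Mtr4-null oocytes of day 14, with day 21 levels of 27.8 and 14.2 FPKM. Its log2 difference was -0.21 at day 14 and -0.93 at day 21, just short of the 2-fold rule. The pair thus stood on opposite sides of 0 at both ages. In WT oocytes the ratio of Sgol2 to Sgol1 FPKM was 0.758 at day 14 and 0.679 at day 21. Without a replicate error the 2 genes cannot be ordered in WT. In Mtr4-null oocytes the ratio was 3.57 at day 14 and 34.8 at day 21.

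At day 14 the other 9 genes lay close to WT. Their log2 differences ran from -0.48 for Ttk to -0.051 for Bub3, with a median of -0.23. All 9 were below 0, and all 9 were also below the median of all genes tested, 0.052. For genes with at least 10 FPKM in WT at day 21 that median was -0.073, and Bub3 stood above it. Under quantile normalization Bub3 also stood 0.023 above the median of all genes tested. Ttk stood at 113 FPKM in WT against 80.8 FPKM in Mtr4-null oocytes, and no other gene of the 9 was further from WT. Sgol2 stood 2.198 above the median of the 9 at day 14 and 5.64 above it at day 21.

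At day 21 the kinase genes Plk1 and Ttk stood furthest below WT. Plk1, whose product drives spindle assembly and the release of cohesin from chromosome arms in mitosis, stood at 116 FPKM in WT against 108 FPKM in Mtr4-null oocytes of day 14. At day 21 it stood at 135 and 24.3 FPKM, 5.55-fold lower, with a log2 difference of -2.42. Ttk stood at 127 and 24.0 FPKM at day 21, 5.30-fold lower, with a log2 difference of -2.36. These 2 kinase mRNAs had nearly the same levels in 3 of the groups and differed most in Mtr4-null oocytes of day 14. From the bottom of all 11913 genes they held places 258 and 297. Of the windows of 50 bases in the Plk1 transcript, 10.9% recur in 2 other genes, whereas none of those of Ttk do.

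The Aurora kinases differed less. Aurka, which encodes the kinase of spindle poles, stood at 168 and 140 FPKM at day 14 and at 203 FPKM in WT against 101 FPKM in Mtr4-null oocytes of day 21. The day 21 values were 2.01-fold apart, and the log2 difference of -1.003 met the rule by a hair. It was -0.86 under median-of-ratios scaling and -0.89 under quantile normalization, which do not meet it. Aurkc was the most abundant of the 10 mRNAs in both WT groups, at 303 FPKM at day 14 and 333 FPKM at day 21. In Mtr4-null oocytes it stood at 264 and 255 FPKM, which put it -0.20 and -0.39 from WT in log2. Aurkb, whose product Aurora C stands in for in germ cells, was far scarcer, at 13.7 to 18.1 FPKM over the 4 groups. The Aurkc level is uncertain, since 63.7% of the windows of its longest coding transcript recur in 10 other genes, all annotated as pseudogenes.

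The BUB and MAD genes divided at day 21. Bub1, whose kinase marks centromeres for shugoshin, stood at 49.8 FPKM in WT against 41.3 FPKM in Mtr4-null oocytes of day 14. At day 21 it stood at 46.8 and 16.2 FPKM, a log2 difference of -1.47. Bub1b, which encodes the inhibitor subunit BUBR1, stood at 165 and 132 FPKM at day 14 and at 268 and 104 FPKM at day 21, a log2 difference of -1.36. Both were called lower at day 21 under every scaling and filter tried. Mad2l1, which encodes MAD2, stood at 230 and 196 FPKM at day 14 and at 227 and 128 FPKM at day 21, with a log2 difference of -0.82 that was not called. Bub3, the partner that carries BUB1 and BUBR1 to kinetochores, stood at 116 and 112 FPKM at day 14 and at 126 and 127 FPKM at day 21. Its day 21 difference was 0.014, so it was the gene of the 10 closest to WT. The ratio of Bub3 to Bub1 mRNA was accordingly 2.70 in WT and 7.84 in Mtr4-null oocytes at day 21, against 2.32 and 2.70 at day 14. In GENCODE vM21 all 11674 bases of the Bub3 gene are overlapped by Fgfr2 on the other strand. Only 0.594% of the windows of the Bub3 transcript recur in transcripts of other genes.

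**Figure D2:**
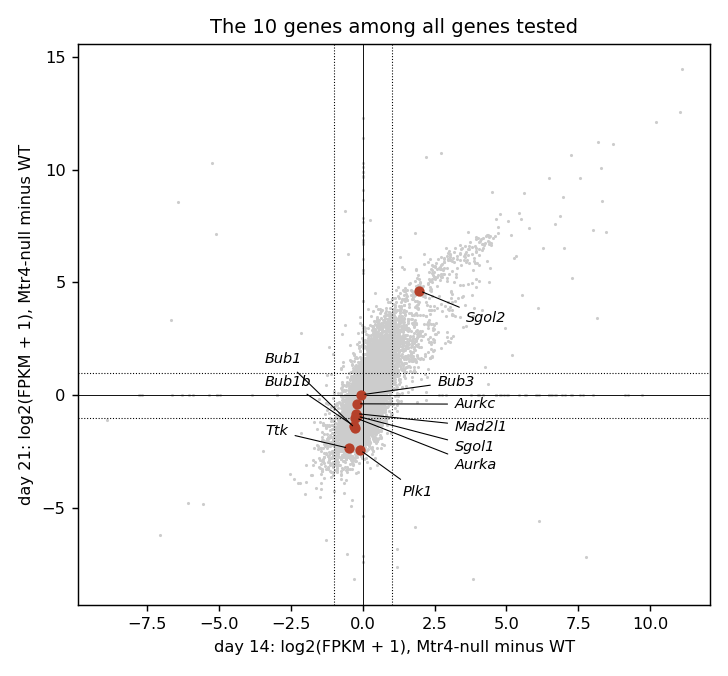
Difference of Mtr4-null from WT oocytes at day 14 (x axis) and day 21 (y axis), in log2(FPKM + 1), for the 11913 genes tested (grey) and the 10 genes (red). Dotted lines mark 2-fold, and Sgol2 (1.96 and 4.63) lies past both while the other 9 genes lie between -0.48 and -0.051 at day 14 and between -2.42 and 0.014 at day 21.

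The 5 genes lower at day 21 (Plk1, Ttk, Aurka, Bub1 and Bub1b) make up 50% of the 10, against 25.7% of all genes tested. All 10 are well expressed in WT, and lower calls were more common among such genes. Of the 5925 genes with at least 10 FPKM in WT at day 21, 36.4% were lower and 7.16% higher, with a median of -0.67. The median of the 10 genes was -0.97, and that of the 9 without Sgol2 was -1.003. With 10 genes and 1 value per group, these shares carry little weight.

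The transcripts of these genes differ in build. In GENCODE vM21 the longest coding transcripts of Bub1, Bub1b and Ttk have 25, 23 and 22 exons, that of Plk1 has 10, and those of Aurka and Sgol1 have 9. Those of Aurkc, Bub3 and Mad2l1 have 7, 6 and 6. The 3 genes with the fewest exons were the 3 with the smallest distance from WT at day 21, whereas Sgol2, with 9 exons, stood at the other end from Plk1 with 10. Plk1, at -2.42, also stood below Bub1 at -1.47 and Bub1b at -1.36, which have more exons. This is a description over 10 genes, and a link of exon number to the differences was not tested.

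With age, WT oocytes differed little. None of the 10 genes differed 2-fold between day 14 and day 21 in WT, where 2.02% of all genes tested were higher and 3.32% lower at day 21. Differences ran from -0.087 for Bub1 to 0.70 for Bub1b, whose level was 1.63-fold higher at day 21. Sgol2 stood at -0.083 and Plk1 at 0.22. In Mtr4-null oocytes 1 of the 10 was higher at day 21 than at day 14 and 3 were lower, against 9.08% and 18.6% of all genes. Sgol2 was 6.06-fold higher there, a log2 difference of 2.59. Plk1, Ttk and Bub1 were lower, with values of -2.10, -1.71 and -1.30. With median-of-ratios scaling Bub1 stood at -0.99, short of the rule. The share of calls of all genes that were higher in this comparison went from 32.8% to 55.4% under that scaling and to 48.2% under quantile normalization.

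The genotype difference itself was set against age by subtracting the day 14 difference from that of day 21. Sgol2 was 2.67 higher by this measure. Plk1, Ttk, Bub1 and Bub1b were lower, at -2.32, -1.88, -1.21 and -1.05. Among all genes 13.6% were higher and 22.4% lower, and the higher share of calls of 37.7% became 54.5% under median-of-ratios scaling and 48.6% under quantile normalization. Under either, Plk1 and Ttk remained called and Bub1 and Bub1b did not. These comparisons share group means with the genotype comparisons, so they are not independent of them.

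The order of the 10 mRNAs by level shifted with these differences. In WT oocytes of both ages Aurkc was first, Bub1 eighth, Sgol1 ninth and Sgol2 last. Sgol2 made up 1.54% of the summed 1307 FPKM of the 10 genes at day 14 and 1.25% of 1512 FPKM at day 21. In Mtr4-null oocytes it was in place 7 at day 14, with 6.90% of 1178 FPKM, and in place 1 at day 21, with 38.3% of 1286 FPKM. Plk1 and Ttk were in places 7 and 8 there, with 1.89% and 1.87% of the sum. Neighbouring places, such as Plk1 at 115.8 FPKM and Bub3 at 115.7 FPKM in WT at day 14, cannot be ordered without a replicate error.

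The genes most like Sgol2 and Plk1 across the 4 groups were found by the distance between patterns, each taken as 4 log2(FPKM + 1) values with the mean of the gene removed, among 8189 genes with a mean of at least 5 FPKM. Nearest to Sgol2 were Hist4h4, 5031426D15Rik, BC020402 and Rsad1, at distances of 0.12, 0.16, 0.22 and 0.22. Their WT levels were all under 5 FPKM, so they passed this filter only through their Mtr4-null levels. They were chosen for their likeness to Sgol2, so the shared pattern is no separate support. Hist4h4, a histone H4 gene, stood at 1.38 FPKM in WT against 7.56 FPKM in Mtr4-null oocytes of day 14, with day 21 levels of 1.23 and 56.9 FPKM. The other 3 were under 1 FPKM in WT at both ages, with Rsad1 at 0.250 and 0.185 FPKM there, while its Mtr4-null levels were 4.54 and 25.8 FPKM. The likeness holds on the log2(FPKM + 1) scale, which compresses levels under 1 FPKM, and other pseudocounts were not tried for it. As plain ratios of FPKM the day 21 folds ran from 46.4 for Hist4h4 to 1739 for BC020402, against 26.1 for Sgol2. Nearest to Plk1 were Ildr1, Aspm, Rab3gap1 and Tgfb2, at distances of 0.11, 0.11, 0.12 and 0.13. Aspm, which encodes a spindle pole protein, stood at 125 and 108 FPKM at day 14 and at 135 FPKM in WT against 23.5 FPKM in Mtr4-null oocytes of day 21. Its day 21 log2 difference was -2.47, and those of Ildr1, Rab3gap1 and Tgfb2 were -2.46, -2.37 and -2.45. These genes too were chosen for their likeness, here to Plk1, so the shared pattern is no separate support.

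**Figure D3:**
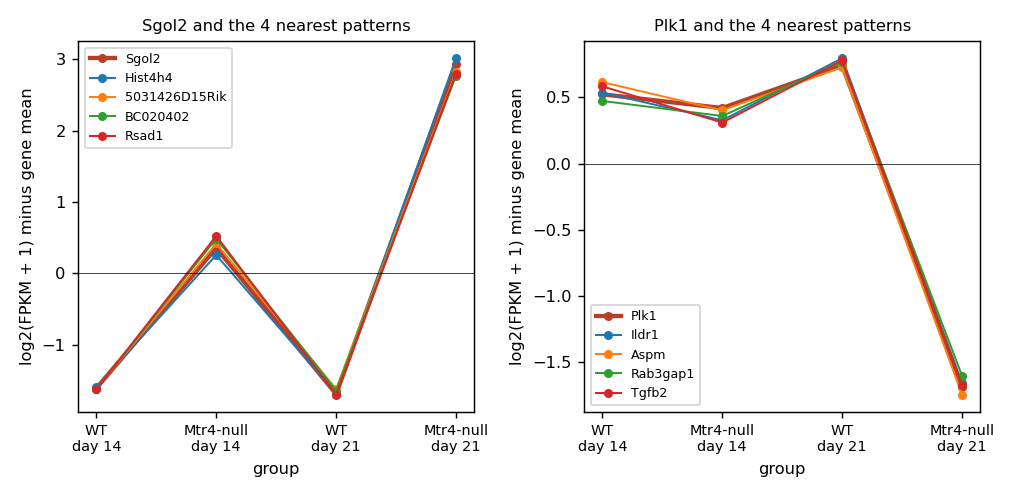
Patterns of Sgol2 (left) and Plk1 (right) over the 4 groups with the 4 genes nearest to each, as log2(FPKM + 1) minus the mean of the gene. Each point is a group mean, lines only join the points of a gene, and the left patterns peak in Mtr4-null oocytes of day 21 while the right ones are lowest there. The nearest genes were chosen for this likeness.

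The proteins that work with these kinases and protectors were followed in 8 lists holding 116 genes of the table, 110 of which passed the filter. At day 14, 1 of the 110 was higher and none lower, against 8.1% and 1.55% of all genes. At day 21, 10 were higher (9.09%) and 30 lower (27.3%), and the median was -0.52 against -0.27 for all genes. The shares stand below the 20.2% and near the 25.7% of all genes. Among genes with at least 10 FPKM in WT at day 21, 7.16% were higher and 36.4% lower. Against these the partner genes were higher somewhat more often and lower less often, though not every partner gene reaches that level. The reference genes were chosen by the WT day 21 level, which enters the day 21 difference, and the partner genes were not. The shares are therefore not like for like, and nothing is concluded from their difference.

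Among other checkpoint genes, 2 of 9 were higher (22.2%) and 4 lower (44.4%) at day 21, or 2 lower under median-of-ratios scaling. Of all genes tested 20.2% were higher and 25.7% lower, and of those with at least 10 FPKM in WT at day 21 36.4% were lower. Mad1l1, the receptor of MAD2 at kinetochores, stood at 25.7 FPKM in WT against 5.94 FPKM in Mtr4-null oocytes, and the nuclear pore gene Tpr at 12.0 and 4.76 FPKM. The other lower ones were Kntc1 and Ccdc99, named after their values were seen. The 2 higher ones were Mad2l1bp and Trip13, a share near that of all genes tested. Mad2l1bp, which encodes the MAD2 binder p31comet, stood at 26.9 and 63.4 FPKM, and Trip13, which encodes the ATPase that opens MAD2 with it, at 7.22 and 17.2 FPKM.

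Of the 19 genes of the anaphase-promoting complex and its partners, 4 were lower (21.1%) and none higher at day 21, against 25.7% and 20.2% of all genes. The subunit gene Cdc16 stood at 20.4 FPKM in WT against 4.27 FPKM in Mtr4-null oocytes. Anapc16 stood at 111 and 37.2 FPKM, the cullin subunit gene Anapc2 at 20.4 and 8.22 FPKM, and the ubiquitin-conjugating enzyme gene Ube2s at 176 and 75.8 FPKM. In the chromosomal passenger list 2 of 5 were lower (40%). Gsg2, which encodes the histone kinase haspin that recruits the complex to centromeres, stood at 46.4 and 14.7 FPKM, and the scaffold gene Incenp at 29.7 and 11.1 FPKM. Of 10 cofactors and relatives of Aurora A and the Polo kinases 2 were lower (20%), Hmmr at 100.1 and 22.9 FPKM and Nedd1, a recruiter of gamma-tubulin, at 82.3 and 28.9 FPKM.

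**Figure D4:**
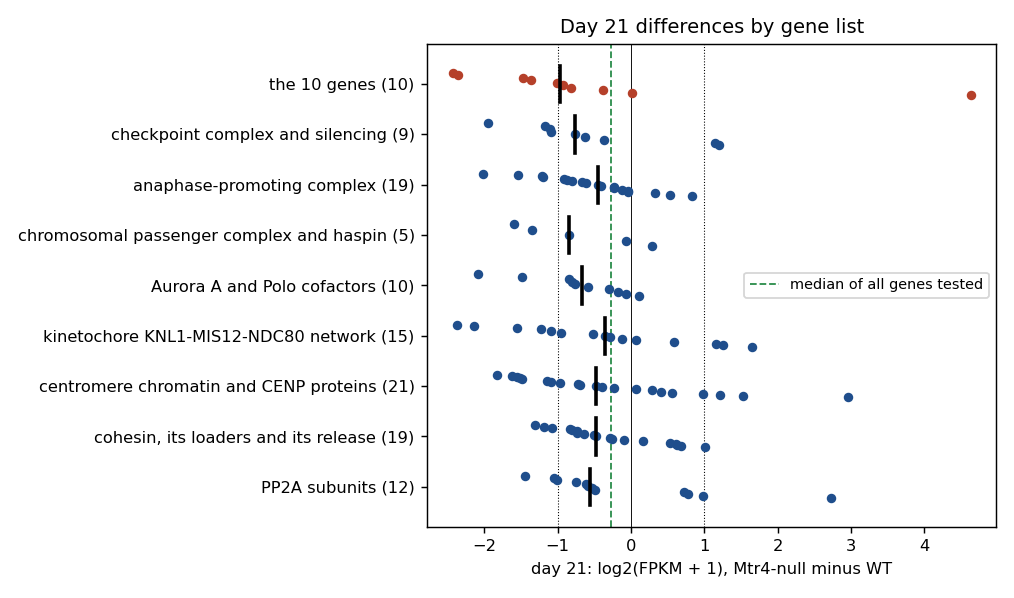
Difference of Mtr4-null from WT oocytes at day 21 in log2(FPKM + 1) for the 10 genes (red) and for each of the 8 lists of partner genes (blue), with the number of genes that passed the filter in brackets. Black bars are list medians, dotted lines mark 2-fold, the dashed line is the median of all genes (-0.27), and no partner gene reaches the 4.63 of Sgol2.

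Of 15 genes of the KNL1-MIS12-NDC80 network 5 were lower (33.3%) and 3 higher (20%) at day 21, near the 25.7% and 20.2% of all genes tested. Dsn1, of the MIS12 complex, stood at 176 FPKM in WT against 33.4 FPKM in Mtr4-null oocytes, Spc25, of the NDC80 complex, at 155 and 34.3 FPKM, and the kinesin gene Cenpe at 28.8 and 9.19 FPKM. F630043A04Rik, now Ska3, was higher, at 56.5 and 180 FPKM. Of 21 centromere chromatin genes 7 were lower (33.3%) and 3 higher (14.3%). Oip5, which encodes a loader of the centromeric histone CENP-A, stood at 18.6 and 44.1 FPKM at day 14 and at 13.2 and 109 FPKM at day 21, and it was the single partner gene called at day 14. Cenpp stood at 95.4 and 26.2 FPKM at day 21, Cenpq at 170 and 57.6 FPKM, and Itgb3bp at 5.69 and 1.17 FPKM. Further called genes of these 2 lists, named after their values were seen, included Ndc80, Ska1, Cenpm, Mlf1ip and Apitd1 among the lower and Spc24, Cenpf, Cenpi and Cenpt among the higher. Members of 1 complex thus stood on opposite sides, with Spc24 at 65.7 and 158 FPKM while Spc25 was lower.

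Cohesin and PP2A are the direct partners of the shugoshins. Of 19 cohesin genes 3 were lower (15.8%) and 1 higher (5.26%) at day 21, against 25.7% and 20.2% of all genes, and their median was -0.48 against -0.27. The cohesin gene Rec8 did not pass the filter, at 0 to 0.067 FPKM over the 4 groups, and is not among the 19. The meiotic cohesin gene Smc1b stood at 8.65 FPKM in WT against 2.90 FPKM in Mtr4-null oocytes, the separase gene Espl1 at 14.4 and 5.81 FPKM, and the loader gene Nipbl at 9.57 and 4.03 FPKM. The single higher one, Pds5a, met the rule by a hair (1.01) and was not called with a minimum mean of 5 FPKM or under quantile normalization. Of 12 PP2A genes 3 were lower (25%) and 1 higher (8.33%), with a median of -0.56, the lower ones being Ppp2r5b, Ppp2r5c and Set. Ppp2cb, a catalytic subunit gene, stood at 1.27 and 14.1 FPKM, the regulatory subunit gene Ppp2r5c at 34.9 and 16.4 FPKM, and Set, which encodes a PP2A inhibitor, at 34.1 and 16.4 FPKM. Under either other scaling 1 PP2A gene was lower and 2 were higher.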

How the data were processed

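Poly(A) RNA of mouse oocytes was measured in 4 groups of 3 labelled samples. The deposited FPKM values are the authors' means over the libraries of a group. The build mm9 and the tools Cufflinks 2.2.1 and TopHat2 2.1.1 are listed, without a role, per the submitters' processing notes. From these values, log2(FPKM + 1) differences were computed with pandas 2.3.3 in Python 3.11.15 for the 11913 genes with a mean of at least 1 FPKM, and differences of at least 1 were called. The 5 comparisons were Mtr4-null against WT at each age, day 21 against day 14 in each genotype, and the difference between the genotype differences. The members, the partner lists and the rules were chosen with earlier results of these data known. Named partner genes were the up to 4 with the largest called day 21 difference per list at 5 FPKM or more in the higher group, filled to 2 by abundance; Skiv2l2 and the nearest patterns were added. Alternatives were a pseudocount of 0.1, no filter, a minimum mean of 5 FPKM, median-of-ratios scaling and quantile normalization. List symbols were matched through RefSeq synonyms. Windows of 50 bases were matched on both strands of GENCODE vM21 transcripts. The calling and scaling steps were tested on simulated data.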

Additional observations from a re-analysis of the deposited data

How the results depend on the processing

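Values are group means without replicate error, so leaving out a library was not possible and depth sets no stated limit. No paired analysis was possible because the columns are means that carry no replicate numbers. The count of the 10 genes lower in the difference between the genotype differences was 4 on the deposited scale and 2 under median-of-ratios scaling and under quantile normalization; the cause was not tested. The other 58 recomputed counts of the 10 genes and distances of Sgol2 from the others stayed within 1.5 times or 1.5-fold of the reported value. For Sgol2 these distances ran from 5.36 to 5.71 at day 21 and from 2.14 to 2.25 at day 14. Of the recomputed differences of single genes 243 kept their call and 7 did not, all under the other scalings: Aurka at day 21, Bub1 and Bub1b in the comparisons with age. No called difference changed sign. Of the recomputed counts of partner lists 151 stayed within 1.5 times and 9 did not. Over all genes, lower calls at day 14 were 185 as reported, 334 with the pseudocount of 0.1 and 324 under quantile normalization. For WT age that pseudocount gave 447 higher and 835 lower against 241 and 396, and a minimum of 5 FPKM gave 133 higher. A minimum of 5 FPKM also gave 695 higher for Mtr4-null age, 1042 higher for the difference between differences and 1447 higher at day 21, among fewer genes tested, against 1082, 1618 and 2410. Median-of-ratios scaling gave 1262 and 1758 lower for the former 2 against 2216 and 2672.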
